A study of Mus musculus with 22 samples.

Results

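Integrins, laminins and the other proteins of the basement membrane were examined in the epithelium of the fetal mouse urogenital sinus, which in males gives rise to the prostatic buds. The members were the genes with a probe set of a single symbol that names an integrin alpha chain, an integrin beta chain or a laminin chain, together with 14 further basement membrane genes. Collagens were left out. This gave 49 of 30102 named genes: 17 integrin alpha chains, 8 integrin beta chains, 10 laminin chains and 14 others. Each was measured by 1 probe set, and 45 passed the filter on dim probe sets. Itga1 and Lamb4 had no probe set with a single name and were not analysed here.

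The study compared sinus epithelium with and without Sox9, a transcription factor of developing epithelia, in both sexes at embryonic day E16.75. The 4 groups were 6 arrays of male knockouts, 6 of male controls, 5 of female knockouts and 5 of female controls, all from C57BL/6J fetuses. Knockouts had Cre in place at 1 Shh allele and both Sox9 copies floxed (ShhCre/+; Sox9fl/fl), so that Cre acts where Shh is expressed. Their littermate controls had normal Shh alleles, no Cre and 1 floxed Sox9 copy (Shh+/+; Sox9+/fl). Sox9 loss and the altered Shh allele therefore cannot be told apart. After digestion in trypsin and collagenase, mesenchyme was taken off under a microscope, and bladder and urethral epithelium was discarded. The replicates are called biological without saying how many fetuses each array held. The p-values therefore refer to the spread from array to array, which may be in part technical.

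A basement membrane is the thin sheet of matrix on which an epithelium rests. Laminins are trimers of an alpha, a beta and a gamma chain that polymerise into its first network, to which nidogens, perlecan, agrin and collagen IV are joined. Integrins are receptors made of an alpha and a beta chain that bind laminins, collagens or other matrix proteins and couple them to the cytoskeleton, while dystroglycan binds laminin as a separate receptor. Laminin remodelling and integrin signalling accompany the outgrowth of epithelial buds in glands such as the salivary gland and the lung.

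Values are log2 signals of whole-transcript arrays and compare a gene only with itself across arrays. They ran from 1.59 to 14.23 over the table, and the median of 23 background probe sets was 3.19. Precision is limited by how many arrays each group held. Sox9 averaged 8.26 in male knockouts and 9.33 in male controls, and 7.89 in female knockouts and 8.89 in female controls (limma adjusted p = 1.04e-07 and 2.28e-06). Whether its probe set lies inside the floxed exons is not known here. Shh was also lower in knockouts, with log2 fold changes of -0.45 in males and -0.56 in females. All 9 epithelial markers, of which Shh was 1, were measured, and their mean lay between 11.28 and 11.39 on every array. The mean of 4 urothelial markers varied more, at 10.87 to 11.75 in male knockouts and 11.06 to 11.45 in male controls. In females it was 11.16 to 11.73 in knockouts and 10.90 to 11.40 in controls, and its part in the results was not tested. The mean of 9 of 10 mesenchyme markers was 6.59 to 7.04 in male knockouts, 6.64 to 7.81 in male controls, 6.73 to 6.89 in female knockouts and 6.71 to 6.96 in female controls. Male control 6 held the 7.81, and no other male control was above 6.87. Its smooth muscle list (6 genes) was also high, at 7.11 against at most 5.79 in the other male controls. The early response genes that dissociation can induce (7 of 8 measured) averaged 7.10 to 8.06 in male knockouts, 7.18 to 7.39 in male controls, 7.37 to 8.30 in female knockouts and 7.53 to 7.64 in female controls.

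**Figure D1:**
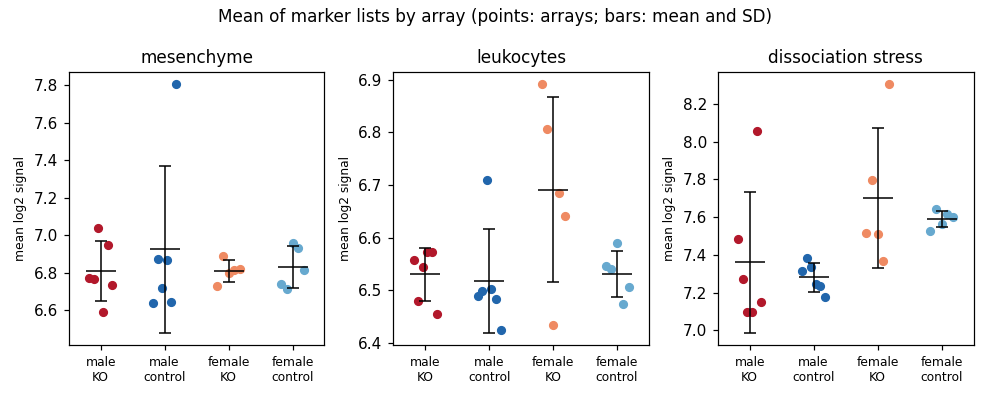
Mean log2 signal of the mesenchyme, leukocyte and dissociation stress marker lists (vertical axes) on each of the 22 arrays, by group. Points are arrays and bars the mean and SD. Male control 6 stands apart in mesenchyme markers at 7.81, and male knockout 5 and female knockout 5 are highest in stress genes at 8.06 and 8.30.

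Between knockouts and controls, 1 of the 45 members passed the test in males, the integrin beta 8 chain, and it was lower in knockouts. Itgb8 pairs with the alpha v chain, and the receptor binds the latent complex of TGF-beta and takes part in releasing the active growth factor. Its signal ran from 6.17 to 6.66 (median 6.43) in male knockouts and from 7.03 to 7.55 (median 7.14) in male controls. No male knockout reached the lowest male control. The signal was 6.52, 7.11, 6.85, 6.71 and 6.59 in female knockouts and 7.11, 7.23, 7.05, 7.08 and 7.22 in female controls. Female knockout 2 lay within the range of the female controls and the other 4 lay below it. In males Itgb8 averaged 6.43 ± 0.17 in knockouts and 7.23 ± 0.20 in controls (SD, n = 6 each), a fall of 1.74-fold (log2 fold change -0.80, SE 0.10, limma adjusted p = 0.000256). In females it averaged 6.76 ± 0.23 in knockouts and 7.14 ± 0.08 in controls (SD, n = 5 each), and the log2 fold change of -0.38 (SE 0.11) did not pass (limma adjusted p = 0.595). The male minus the female effect did not pass (log2 difference -0.41, unadjusted 95% interval -0.71 to -0.11, limma adjusted p = 0.997).

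Averaged over the sexes, Itgb8 fell by 0.59 on the log2 scale (SE 0.07, limma adjusted p = 0.000158). In bulk RNA, fewer cells that express a gene and less of its RNA per cell cannot be told apart. The male log2 fold change was -0.76 without male control 6, -0.78 with the mesenchyme mean as a covariate, -0.80 with the stress mean, and between -0.84 and -0.73 when any single array was left out. Itgav, the alpha v partner of Itgb8, averaged 8.05 ± 0.07 in male knockouts and 8.04 ± 0.13 in male controls (log2 fold change 0.01, 95% interval -0.15 to 0.16). Itgb6, the beta chain of the other main integrin that activates TGF-beta in epithelia, had log2 fold changes of -0.01 in males (interval -0.13 to 0.11) and -0.16 in females (limma adjusted p = 0.863).

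The stretch of 250 bases upstream of the Itgb8 start, which lies at chr12:119238277-119238526 on the minus strand of GRCm38.p6, is shown because Itgb8 was the member that fell. It is given on the gene's strand from RefSeq. Both strands were searched for 3 motifs that do not overlap one another here: ACAAT, the core of SOX sites, AGAACA, the core letters of an androgen receptor site, and GGGCGG, the GC box. The window held none of them, which says only that these letters are not in this window. Over 32851 such windows, 27.7% held ACAAT, 16.1% AGAACA and 32.7% GGGCGG. Of the 32 members with a window in the table, 6, 8 and 15 held them, in that order.
Itgb8: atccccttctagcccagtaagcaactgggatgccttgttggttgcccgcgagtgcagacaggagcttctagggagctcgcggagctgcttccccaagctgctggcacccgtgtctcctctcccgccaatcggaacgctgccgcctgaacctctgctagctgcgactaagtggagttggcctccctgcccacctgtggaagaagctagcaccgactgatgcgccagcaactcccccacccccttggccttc

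**Figure D2:**
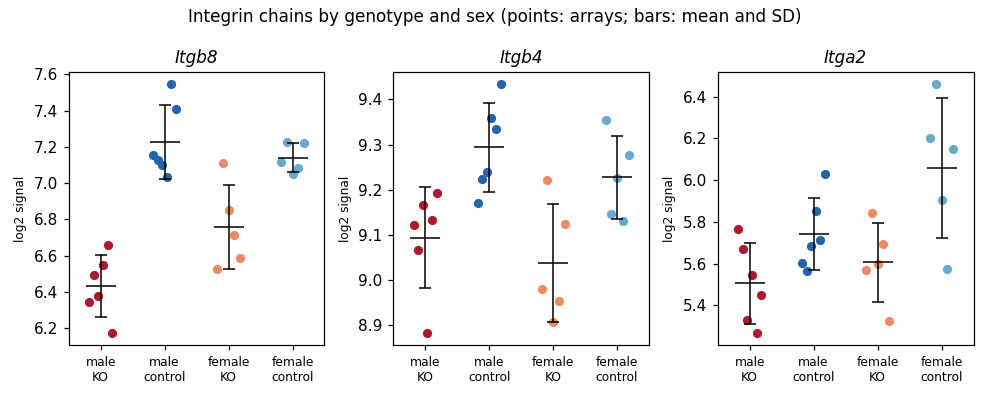
Log2 signal (vertical axes) of the integrin chains Itgb8, Itgb4 and Itga2 on every array, by genotype and sex. Points are arrays and bars the mean and SD. The 6 male knockouts lie between 6.17 and 6.66 for Itgb8, all below the male controls at 7.03 to 7.55.

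Against the background of all 19050 genes tested, 0.199% were called in the male comparison, 0.0315% in the female and 0.247% in the mean over the sexes, while 1, 0 and 1 of the 45 members were. Lower calls alone made up 0.178% of all genes in males and 0.199% in the mean. At an unadjusted p under 0.05 in limma, 6 of the 45 members passed in males, 7 of 45 in females and 8 of 45 in the mean. The shares over all genes were 6.27%, 5.46% and 7.19%. The median log2 fold change of the members was -0.01 in males and -0.01 in females, beside 0.01 and 0.01 over all genes tested. Itgb8 and Agrn were the members whose male knockouts and male controls did not overlap (0.42% of all genes), and no member separated in females, where 1.39% of all genes did.

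Among the other beta chains, Itgb4 belongs to the receptor that, with alpha 6 (Itga6), anchors basal epithelial cells to laminin through hemidesmosomes. It ran from 8.88 to 9.19 (median 9.13) in male knockouts and from 9.17 to 9.43 (median 9.29) in male controls, with 1 male knockout above the lowest control. It was 8.98, 9.22, 8.91, 8.95 and 9.12 in female knockouts and 9.36, 9.15, 9.22, 9.13 and 9.28 in female controls, so the groups overlapped in females too. The log2 fold changes were -0.20 in males, -0.19 in females and -0.19 in the mean (SE 0.05, limma adjusted p = 0.0983). That mean passed with each array centred on its median (-0.21, adjusted p = 0.0392) and without female knockout 2 (-0.22, adjusted p = 0.0339). Itgb1, the beta chain of most laminin and collagen receptors, averaged 8.95 ± 0.09 in male knockouts and 9.04 ± 0.10 in male controls (log2 fold change -0.09, 95% interval -0.20 to 0.02). Itgb2, Itgb3, Itgb5 and Itgb7 had log2 fold changes between -0.02 and 0.10 in males and between -0.02 and 0.05 in females. Itgb3 exceeded the array median on 13 of the 22 arrays.

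None of the alpha chains passed in a knockout comparison. Itga2, which with beta 1 binds collagens and laminins, was 5.57, 5.84, 5.60, 5.69 and 5.32 in female knockouts and 6.20, 6.46, 5.90, 5.58 and 6.15 in female controls. Female control 4 was the lone female control within the range of the knockouts. In males it ran from 5.27 to 5.77 (median 5.50) in male knockouts and from 5.57 to 6.03 (median 5.70) in male controls, with overlap. The log2 fold change was -0.45 in females (SE 0.13, limma adjusted p = 0.595), -0.23 in males (SE 0.12) and -0.34 in the mean (limma adjusted p = 0.166). Without female control 4 the mean passed (-0.40, adjusted p = 0.0213). Itga9, whose product binds tenascin C and osteopontin, ran from 5.66 to 6.30 (median 5.94) in male knockouts and from 5.90 to 6.88 (median 6.24) in male controls (log2 fold change -0.34, SE 0.11, limma adjusted p = 0.533). Male control 6 was its highest control at 6.88, and the value without that array was -0.21. Itga8, a receptor chain for nephronectin in kidney and other organs, had log2 fold changes of 0.23 in females (SE 0.10, limma adjusted p = 0.883) and 0.06 in males. Npnt, which encodes that ligand, had log2 fold changes of 0.14 in females (SE 0.06, limma adjusted p = 0.884) and 0.03 in males. The laminin receptor chains Itga3 and Itga6 had log2 fold changes of -0.05 and -0.09 in males and 0.06 and 0.01 in females.

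No laminin chain passed in either knockout comparison. The 10 log2 fold changes lay between -0.17 (Lama1) and 0.10 (Lamc1) in males and between -0.17 (Lama4) and 0.03 (Lama3) in females. Precision was highest for Lama3, where the 95% interval of the change ran -0.07 to 0.14 in males, and lowest for Lama4, where it ran -0.48 to 0.18. Agrin (Agrn), a heparan sulphate proteoglycan that links laminin to dystroglycan, ran from 10.0001 to 10.08 (median 10.06) in male knockouts and from 10.11 to 10.29 (median 10.13) in male controls. The groups did not overlap, but the log2 fold change was small at -0.13 (SE 0.04, limma adjusted p = 0.516), and it was -0.09 in females. Sparc, a collagen-binding matricellular protein, had log2 fold changes of -0.19 in males (SE 0.08, limma adjusted p = 0.73) and 0.03 in females. Perlecan (Hspg2) had log2 fold changes of 0.09 in males and -0.19 in females. Dystroglycan (Dag1) had a log2 fold change of -0.01 in males, with a 95% interval of -0.09 to 0.08. Fras1 and Frem2, which with Frem1 form the Fraser complex beneath embryonic epithelia, had log2 fold changes of 0.03 and -0.03 in males and -0.11 and -0.17 in females. The fibulins Fbln1 and Fbln2 had log2 fold changes of -0.05 and -0.11 in males and -0.06 and -0.06 in females.

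**Figure D3:**
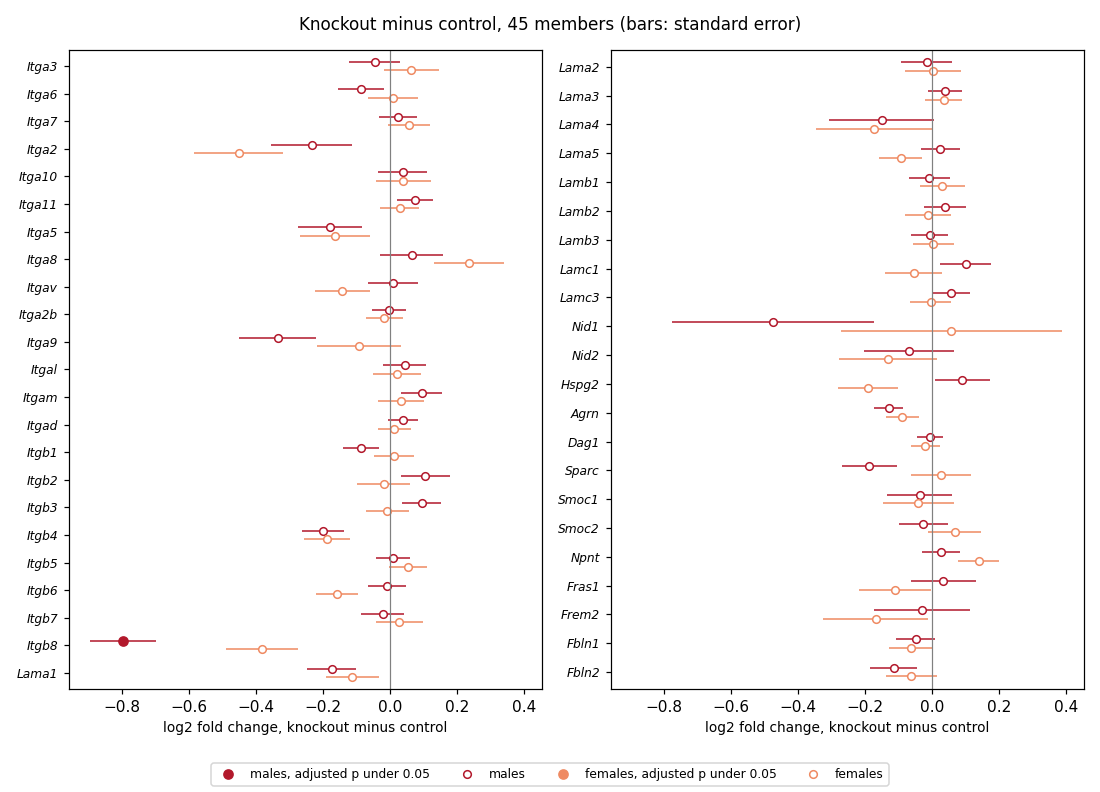
Log2 fold change, knockout minus control (horizontal axes), of the 45 tested members in males and in females. Points are estimates, bars the standard error, and filled points an adjusted p under 0.05. Itgb8 in males is the lone filled point, at -0.80.

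The comparison of males with females set the sex whose sinus epithelium gives rise to prostatic buds against the other. Budding itself was not measured, and it cannot be told apart here from any other difference between the sexes. In knockouts 9 of the 45 members passed (7.19% of all genes tested), 4 higher (3.66% of all genes) and 5 lower (3.52%) in males. In controls 9 passed again (6.94% of all genes), 4 higher (3.27%) and 5 lower (3.67%). Without male control 6 the control count was also 9. The comparisons share no group means, but the fit took each gene's spread from all 22 arrays for both. The controls were also littermates of knockouts, so the comparisons are not independent. Of the 9 calls in each, 8 were shared with the same sign, which is 88.9% of each list. Over all genes, 809 were shared in this way, 59.1% of the 1369 knockout calls and 61.2% of the 1322 control calls. As a share of the genes tested, 17.8% of the members and 4.25% of all genes were called the same way in both. Higher in males in both were the laminin chains Lamc1, Lamb2, Lamb1 and Lama5. Lower in males in both were Lama3, Smoc1, Itga8 and Itga5. With each array centred on its median, the 6 calls in knockouts were 3 higher and 3 lower, and the 6 in controls 5 higher and 1 lower (83.3% higher, against 44.4% as deposited). Of the 7 early response genes, 1 passed in each comparison and was lower in males: Jun, with log2 fold changes of -1.05 in knockouts and -1.04 in controls, male minus female. The other 6 did not pass, and the median of the 7 was -0.18 in knockouts and -0.15 in controls. Their mean overlapped between the sexes in knockouts and did not in controls. With the mean of those genes as a covariate, 7 members passed in each comparison, 4 higher and 3 lower.

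Among the laminins, 5 of 10 chains passed in each comparison, and the gamma 1 chain, which most laminin trimers share, differed most. Lamc1 ran from 10.13 to 10.45 (median 10.28) in male knockouts, against 9.23, 9.51, 9.57, 9.60 and 9.73 in female knockouts. Among controls, Lamc1 ran from 9.95 to 10.31 (median 10.25) in male controls, against 9.53, 9.56, 9.71, 9.65 and 9.46 in female controls. Every male array lay above every female array of the same genotype. Lamc1 was 1.68-fold higher in male knockouts and 1.51-fold higher in male controls (log2 fold change 0.75, SE 0.08, limma adjusted p = 1.17e-06 in knockouts, and 0.59, SE 0.08, adjusted p = 3.06e-05 in controls). The beta 2 chain Lamb2 ran from 8.91 to 9.20 (median 9.04) in male knockouts, against 8.74, 8.36, 8.53, 8.74 and 8.53 in female knockouts. Among controls, Lamb2 ran from 8.90 to 9.16 (median 8.998) in male controls, against 8.62, 8.57, 8.53, 8.57 and 8.68 in female controls, again without overlap in either genotype. It was 1.38-fold and 1.33-fold higher in males (log2 fold change 0.46, SE 0.07, limma adjusted p = 3.77e-05 in knockouts, and 0.42, SE 0.07, adjusted p = 0.000175 in controls).

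The beta 1 chain Lamb1, the usual partner of gamma 1 in early basement membranes, ran from 9.84 to 10.05 (median 9.99) in male knockouts, against 9.58, 9.64, 9.81, 9.81 and 9.93 in female knockouts. Among controls, Lamb1 ran from 9.85 to 10.15 (median 9.96) in male controls, against 9.70, 9.73, 9.77, 9.85 and 9.56 in female controls. The sexes overlapped in both genotypes (log2 fold change 0.22, SE 0.06, limma adjusted p = 0.0394 in knockouts, and 0.26, SE 0.06, adjusted p = 0.014 in controls). The knockout call was lost without male knockout 2, 3, 4, 5 or 6 or female knockout 1, 2 or 3 (0.17 to 0.23) and with median centring (0.24), and the control call without female control 5 (0.22). With no filter on dim probe sets or only the groups compared, the knockout value of 0.22 had adjusted p = 0.059 and 0.0702. The alpha 5 chain Lama5, the main alpha chain of mature epithelial basement membranes, ran from 10.30 to 10.63 (median 10.50) in male knockouts, against 10.09, 10.04, 10.09, 10.22 and 10.28 in female knockouts, with no overlap. Among controls, Lama5 ran from 10.32 to 10.57 (median 10.45) in male controls, against 10.33, 10.15, 10.25, 10.24 and 10.22 in female controls, with overlap (log2 fold change 0.33, SE 0.06, limma adjusted p = 0.000749 in knockouts, and 0.22, SE 0.06, adjusted p = 0.0318 in controls). Its control call was lost without male control 1 or 5 or female control 2, 3, 4 or 5 (0.19 to 0.22) and with the stress covariate (0.21).

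The alpha 3 chain went the other way. Lama3 encodes the alpha chain of the laminin trimer that hemidesmosomes hold. It ran from 7.68 to 7.92 (median 7.76) in male knockouts, against 7.89, 8.14, 7.97, 8.04 and 7.97 in female knockouts, with 1 male knockout inside the female range. Among controls, Lama3 ran from 7.66 to 7.80 (median 7.75) in male controls, against 8.09, 7.97, 7.85, 7.95 and 7.97 in female controls, with no overlap (log2 fold change -0.22, SE 0.05, limma adjusted p = 0.00929 in knockouts, and -0.22, SE 0.05, adjusted p = 0.00925 in controls). The control value was -0.19 with median centring and no longer passed (adjusted p = 0.0593). Lamb3, the beta chain of the same trimer, had a log2 difference of 0.13 in knockouts and 0.14 in controls (SE 0.06, limma adjusted p = 0.188), male minus female. The remaining chains Lama1, Lama2, Lama4 and Lamc3 had log2 differences between -0.12 and 0.03 in knockouts and between -0.11 and 0.09 in controls, none past the test. Lama2 and Lama4 were dim, above the array median on 15 and 21 of 22 arrays.

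The upstream windows of Lama5, Lamb1 and Lamb2 are shown because these are the chains that were higher in males in both genotypes and that the sequence table held. GC boxes on either strand are in capitals (GGGCGG or its reverse complement CCGCCC). Lama5, at chr2:180225860-180226109 on the minus strand of GRCm38.p6, held 4, and Lamb1, at chr12:31265043-31265292 on the plus strand, held 2. Lamb2, at chr9:108479612-108479861 on the plus strand, held none. None of the 3 windows held ACAAT or AGAACA. A match is a description of the letters only.
Lama5: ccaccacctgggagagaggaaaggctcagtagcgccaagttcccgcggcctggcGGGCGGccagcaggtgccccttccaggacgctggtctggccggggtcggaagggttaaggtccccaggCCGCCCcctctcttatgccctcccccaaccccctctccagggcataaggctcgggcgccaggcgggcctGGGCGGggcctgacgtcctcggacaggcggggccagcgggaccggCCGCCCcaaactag
Lamb1: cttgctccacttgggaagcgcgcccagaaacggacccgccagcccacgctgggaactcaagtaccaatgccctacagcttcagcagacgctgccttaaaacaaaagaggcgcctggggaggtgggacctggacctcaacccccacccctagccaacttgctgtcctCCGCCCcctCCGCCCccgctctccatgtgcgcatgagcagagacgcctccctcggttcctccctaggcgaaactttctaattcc
Lamb2: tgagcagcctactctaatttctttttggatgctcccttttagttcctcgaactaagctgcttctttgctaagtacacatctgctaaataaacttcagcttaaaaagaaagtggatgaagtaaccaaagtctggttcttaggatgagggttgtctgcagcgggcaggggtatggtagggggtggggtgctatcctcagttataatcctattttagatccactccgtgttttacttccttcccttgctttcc

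Smoc1, a SPARC-related calcium-binding protein of basement membranes that modulates BMP signals, was the member that was lower in males by the most. It ran from 8.05 to 8.57 (median 8.37) in male knockouts, against 8.85, 9.41, 8.90, 9.23 and 9.03 in female knockouts. Among controls, Smoc1 ran from 8.18 to 8.67 (median 8.34) in male controls, against 9.12, 9.18, 9.20, 8.97 and 9.14 in female controls. No male array reached a female array of its genotype. The difference was 1.69-fold in knockouts and 1.69-fold in controls (log2 fold change -0.76, SE 0.10, limma adjusted p = 2.04e-05 in knockouts, and -0.76, SE 0.10, adjusted p = 2.28e-05 in controls). Its relative Smoc2 had a log2 difference, male minus female, of 0.14 in knockouts and 0.23 in controls (SE 0.08, limma adjusted p = 0.0756). The Smoc2 control value passed with quantile normalization (0.25, adjusted p = 0.0165), with array weights (0.27, adjusted p = 0.00996), with median centring (0.27, adjusted p = 0.0436) and without male control 1 (0.29), male control 4 (0.25) or female knockout 2 (0.23).

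Among the receptors, the alpha 8 and alpha 5 chains were lower in males. Itga8 ran from 7.06 to 7.49 (median 7.23) in male knockouts, against 7.66, 7.80, 7.81, 7.97 and 7.89 in female knockouts, with no overlap. Among controls, Itga8 ran from 6.82 to 7.44 (median 7.26) in male controls, against 7.65, 7.52, 7.38, 7.82 and 7.60 in female controls, where 1 male control lay above the lowest female (log2 fold change -0.58, SE 0.10, limma adjusted p = 0.00036 in knockouts, and -0.41, SE 0.10, adjusted p = 0.0109 in controls). With median centring the control value was -0.37 and did not pass (adjusted p = 0.0612). Its ligand gene Npnt had a log2 difference of -0.05 in knockouts and 0.06 in controls, male minus female, and did not pass. Itga5, which with beta 1 forms the main fibronectin receptor, ran from 6.84 to 7.23 (median 7.15) in male knockouts, against 7.37, 7.54, 7.51, 7.30 and 7.54 in female knockouts, with no overlap. Among controls, Itga5 ran from 7.11 to 7.72 (median 7.21) in male controls, against 7.79, 7.78, 7.32, 7.58 and 7.62 in female controls, where male control 6 lay among the females (log2 fold change -0.35, SE 0.10, limma adjusted p = 0.0284 in knockouts, and -0.34, SE 0.10, adjusted p = 0.0384 in controls). The knockout call was lost without male knockout 3 or 6 or female knockout 2, 3 or 5 (-0.34 to -0.30), with median centring (-0.34) and with the stress covariate (-0.30). The control call was lost without any 1 of male controls 1 to 5 or of female controls 1, 2, 4 and 5 (-0.35 to -0.30), with median centring (-0.30), with the stress covariate (-0.29), with no dim filter (adjusted p = 0.0558) and with only the groups compared (adjusted p = 0.0977). Without male control 6 the control value was -0.43 and passed.

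Itga6, the alpha partner of Itgb4, ran from 8.21 to 8.59 (median 8.29) in male knockouts, against 8.48, 8.69, 8.58, 8.76 and 8.63 in female knockouts. Among controls, Itga6 ran from 8.31 to 8.67 (median 8.44) in male controls, against 8.66, 8.63, 8.63, 8.57 and 8.61 in female controls. The sexes overlapped in both. It passed in knockouts (log2 fold change -0.27, SE 0.07, limma adjusted p = 0.02 in knockouts, and -0.17, SE 0.07, adjusted p = 0.175 in controls), and the difference between these sex differences was -0.10 with a limma adjusted p of 0.997. The knockout call was lost without male knockout 2 or 3 or female knockout 2 or 4 (-0.25 to -0.24), with median centring (-0.25), with the stress covariate (-0.25) and with only the groups compared (adjusted p = 0.0583). Perlecan (Hspg2), a proteoglycan that spans the basement membrane, ran from 9.84 to 10.04 (median 9.98) in male knockouts, against 9.71, 10.01, 9.96, 10.14 and 10.21 in female knockouts. Among controls, Hspg2 ran from 9.55 to 10.04 (median 9.94) in male controls, against 10.33, 10.19, 10.17, 10.07 and 10.22 in female controls, with no overlap. It passed in controls (log2 fold change -0.04, SE 0.09, limma adjusted p = 0.904 in knockouts, and -0.32, SE 0.09, adjusted p = 0.022 in controls), and was lost there without male control 2 (-0.30), male control 3 (-0.26) or female control 1 (-0.29), with median centring (-0.28) and with the stress covariate (-0.30). Whether its sex difference changes with genotype was tested directly and did not pass (log2 difference 0.28, SE 0.12, limma adjusted p = 0.997). For Itgb8 the log2 sex difference was -0.33 in knockouts (SE 0.10, limma adjusted p = 0.0566) and 0.09 in controls (SE 0.10, adjusted p = 0.691). The Itgb8 knockout value passed without male control 5 (-0.33), male knockout 5 (-0.37), female knockout 1 (-0.38) or female knockout 5 (-0.37), without male control 6, male knockout 5 and female knockout 5 together (-0.41, adjusted p = 0.0256), and with the stricter filter on dim probe sets (-0.33). No member passed the test of a difference between the male and the female knockout effect, in which 0.00525% of all genes were called. Itgb8 and Hspg2 had an unadjusted limma p under 0.05 there, as did 4.04% of all genes.

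**Figure D4:**
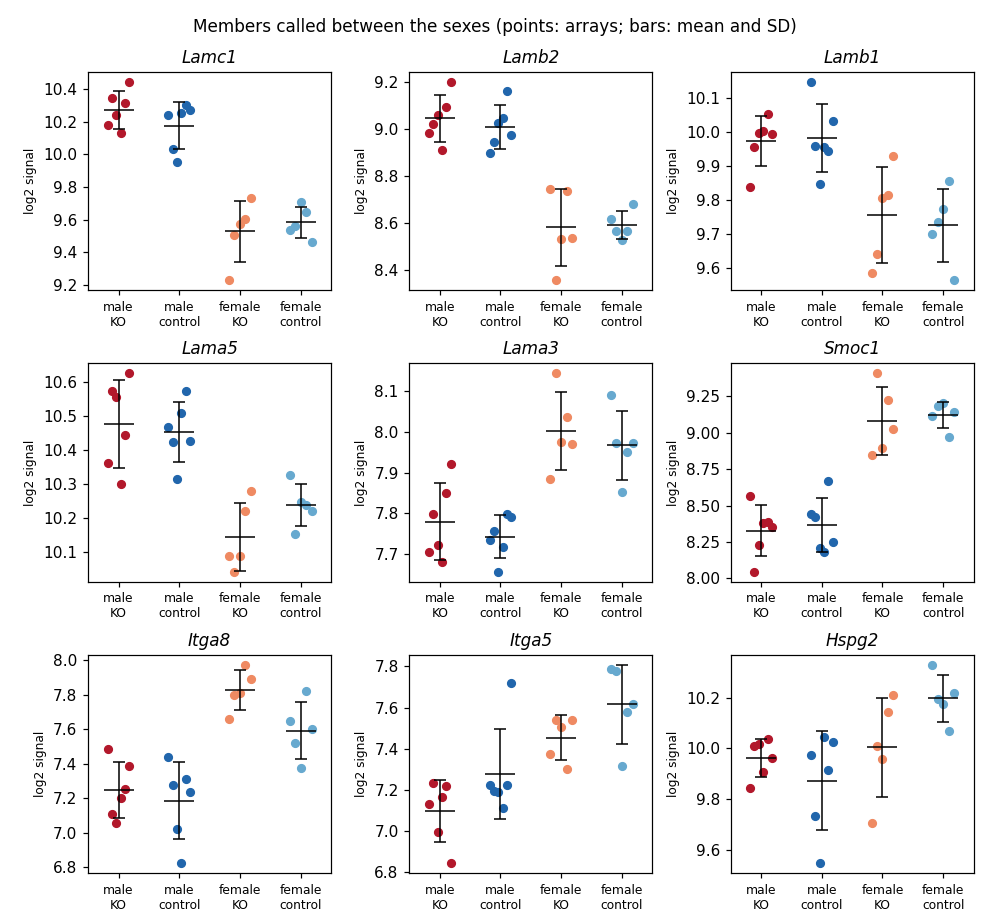
Log2 signal (vertical axes) on every array of 9 members that passed between the sexes, by group, with a scale of its own in each panel. Points are arrays and bars the mean and SD. For Lamc1 the male arrays lie between 9.95 and 10.45 and the female arrays between 9.23 and 9.73. For Smoc1 the order is turned.

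Over all members, 34 passed in none of the 6 comparisons. At an unadjusted p under 0.05 in limma, 12 of the 45 tested members passed between the sexes in knockouts and 17 of 45 in controls. The shares over all genes were 17.2% and 19.1%. The arrays of the sexes did not overlap for 6 of 45 members in knockouts and 5 of 45 in controls, against 5.82% and 5.64% of all genes. The median log2 difference of the members, male minus female, was -0.03 in knockouts and -0.02 in controls, beside -0.01 in each over all genes tested. The leukocyte integrin chains Itgal, Itgam and Itgad exceeded the array median on all 22 arrays, and none passed in any comparison. Over all arrays Itgad ran from 5.17 to 5.44, Itgal from 5.37 to 5.80 and Itgam from 5.70 to 6.11. The array medians were 5.10 to 5.27. The leukocyte marker mean (6 of 7 genes) was 6.46 to 6.57 in male knockouts, 6.42 to 6.71 in male controls, 6.43 to 6.89 in female knockouts and 6.47 to 6.59 in female controls, and its part in these values was not tested. Itgam and Itgad had log2 fold changes, knockout minus control, of 0.09 and 0.04 in males. Itga3, the alpha chain of another laminin receptor, had a log2 difference of 0.10 in knockouts and 0.21 in controls (SE 0.08, limma adjusted p = 0.135), male minus female, and the control value passed with the stress covariate (0.28, adjusted p = 0.0375). Itga2 had a log2 difference of -0.10 in knockouts and -0.32 in controls (SE 0.13, adjusted p = 0.156), and the control value passed without female control 4 (-0.44, adjusted p = 0.0238). Fbln1 had log2 differences of -0.14 in knockouts and -0.15 in controls, neither past the test, and the control value passed with array weights (-0.18, adjusted p = 0.0413).

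**Figure D5:**
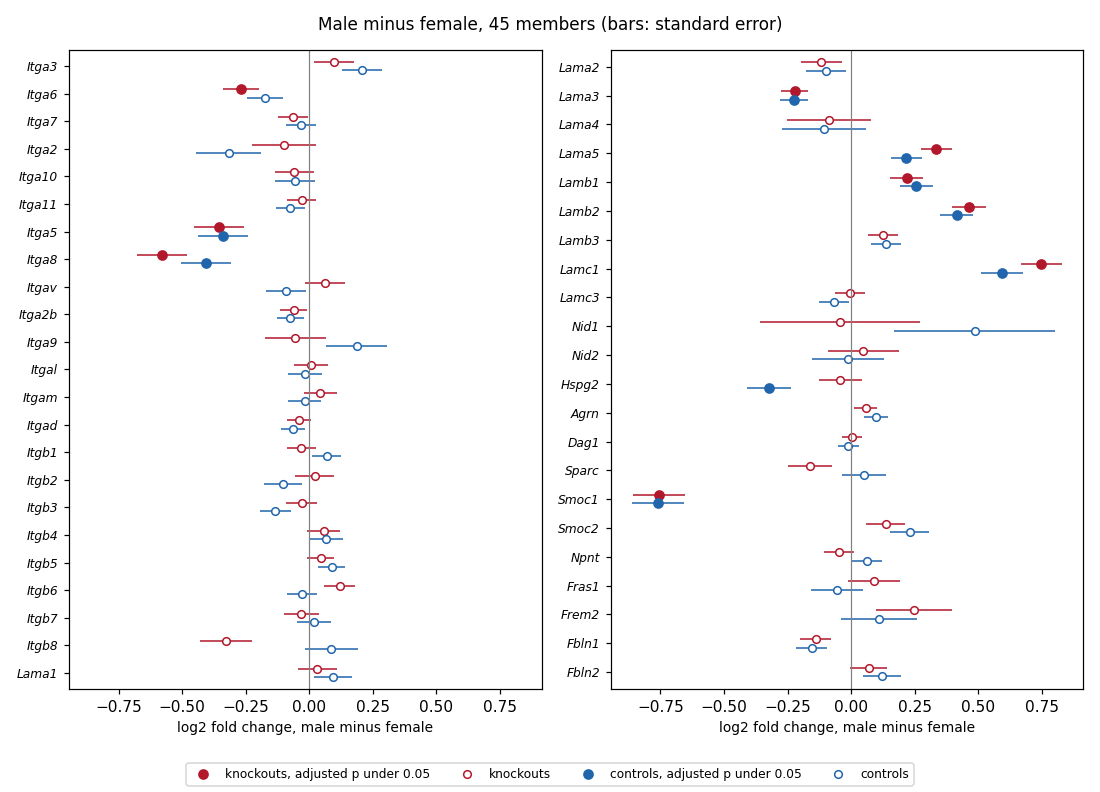
Log2 fold change, male minus female (horizontal axes), of the 45 tested members in knockouts and in controls. Points are estimates, bars the standard error, and filled points an adjusted p under 0.05. Lamc1 and Lamb2 lie to the right (0.75 and 0.46 in knockouts), Smoc1 and Itga8 to the left (-0.76 and -0.58 in knockouts).

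Genes that work with the members were read from 7 lists. Between knockouts and controls none of their tested genes passed in males, in females or in the mean: 6 hemidesmosome partners, 20 focal adhesion adaptors, 7 latent TGF-beta ligands and carriers, 8 matrix ligands of integrins, 6 other basement membrane proteins, 5 other matrix receptors and 3 dystroglycan partners. Among the matrix ligands, thrombospondin 1 (Thbs1), which can activate latent TGF-beta, had log2 fold changes of -0.59 in males (SE 0.15, limma adjusted p = 0.169) and -0.05 in females. Egfl6, a basement membrane ligand of alpha 8 beta 1, had log2 fold changes of -0.39 in males (SE 0.12, adjusted p = 0.442) and 0.17 in females. Grip1, which brings Fras1 and Frem2 to the basal surface, ran 6.99 to 7.26 in male knockouts and 7.29 to 7.36 in male controls without overlap (log2 fold change -0.17, limma adjusted p = 0.33).

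Between the sexes some of these genes passed. Grip1 was lower in males in both genotypes (log2 fold change -0.42, SE 0.05, limma adjusted p = 4.1e-06 in knockouts, and -0.30, SE 0.05, adjusted p = 0.00034 in controls), and so was the basal keratin Krt14 (log2 fold change -0.35, SE 0.09, limma adjusted p = 0.0141 in knockouts, and -0.30, SE 0.09, adjusted p = 0.0349 in controls). Bcar1, an adaptor of integrin signalling, was higher in males in both (log2 fold change 0.32, SE 0.05, limma adjusted p = 0.000101 in knockouts, and 0.17, SE 0.05, adjusted p = 0.0286 in controls). In controls, Egfl6 (log2 fold change 0.69, limma adjusted p = 0.00101) and Tinagl1, a matrix protein that binds laminin (0.40, adjusted p = 0.00796), were higher in males. Fibronectin (Fn1), the ligand of Itga5 and Itga8 receptors, was lower in male controls (-0.40, adjusted p = 0.0021). In knockouts the log2 difference of Egfl6 was 0.13, Tinagl1 0.25 and Fn1 -0.19, each in the direction seen in controls and none past the test. A call in 1 genotype alone does not show that a sex difference changed with genotype. Ilk (0.23) and Tgfb2 (0.33) were higher and Fermt1 (-0.18) lower in male controls, and Plec (0.19) and Papln (0.32) were higher and Tns1 (-0.42) and Ltbp3 (-0.25) lower in male knockouts. By list, the calls in knockouts and in controls were 2 and 1 of 6 for hemidesmosome partners, 2 and 3 of 20 for focal adhesion adaptors, 1 and 1 of 7 for TGF-beta carriers, 0 and 2 of 8 for matrix ligands and 2 and 2 of 6 for other basement membrane proteins, where 7.19% of all genes were called in knockouts and 6.94% in controls. No matrix receptor or dystroglycan partner passed in either.

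The groups overlapped for the remaining members of smallest p in their roles. Npnt ran 8.32 to 8.61 in male knockouts, 8.33 to 8.54 in male controls, 8.43 to 8.64 in female knockouts and 8.20 to 8.49 in female controls. Smoc2 ran 10.94 to 11.17 in male knockouts, 10.82 to 11.28 in male controls, 10.79 to 11.19 in female knockouts and 10.77 to 10.94 in female controls. Itga3 ran 8.69 to 8.95 in male knockouts, 8.70 to 9.10 in male controls, 8.55 to 8.98 in female knockouts and 8.54 to 8.72 in female controls. These 3 members overlapped between groups in every comparison. Fras1 ran 9.54 to 10.04 in male knockouts, 9.53 to 10.03 in male controls, 9.58 to 10.07 in female knockouts and 9.85 to 10.01 in female controls. Frem2, its partner in the Fraser complex, ran 8.64 to 9.22 in male knockouts, 8.37 to 9.27 in male controls, 8.34 to 8.96 in female knockouts and 8.55 to 9.10 in female controls. The fibulin Fbln1 ran 8.46 to 8.73 in male knockouts, 8.54 to 8.82 in male controls, 8.62 to 8.89 in female knockouts and 8.67 to 8.87 in female controls. None of these 3 separated the groups of a comparison. Fbln2, a fibulin that binds nidogen, ran 6.11 to 6.48 in male knockouts, 6.20 to 6.57 in male controls, 6.06 to 6.28 in female knockouts and 6.17 to 6.30 in female controls. Dag1 ran 8.87 to 8.998 in male knockouts, 8.85 to 9.02 in male controls, 8.88 to 8.95 in female knockouts and 8.84 to 9.03 in female controls. Itga11, a receptor chain for fibrillar collagens, ran 5.37 to 5.48 in male knockouts, 5.202 to 5.64 in male controls, 5.40 to 5.51 in female knockouts and 5.35 to 5.53 in female controls. The groups of each comparison overlapped for these 3 as well, and for the leukocyte chains Itgam and Itgad.

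The 4 members that did not pass the dim filter were Frem1, Itga4, Itgae and Itgax, above the array median on 1, 1, 0 and 0 arrays. Frem1 ran 4.59 to 4.81 in male knockouts and 4.63 to 6.26 in male controls, where male control 6 held the highest value. Among the 45 tested members, that array was the highest male control for 14 (31.1%, against 17.9% of all genes) and the lowest for 7. Nid1, a nidogen that bridges laminin and collagen IV, was 8.65 in male control 6 against 6.06 to 6.73 in the other male controls. Lama4, a laminin chain of vessels, was 6.57 against 5.25 to 5.52, and Nid2 was 6.31 against 5.49 to 5.66. Nid1, Lama4 and Nid2 passed in no comparison.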

How the data were processed

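RNA from 22 samples of urogenital sinus epithelium in 4 groups was profiled on Affymetrix whole-transcript arrays, per the labels' protocols. The authors deposited 1 table of log2 values for 72688 probe sets, of which 65770 were transcript clusters. The log2 scale was inferred from their range. How probes were background-corrected, normalized and summarized is not given in the sources used here. Medians of the arrays lay between 5.10 and 5.27, and no further scaling was applied. Within a group, pairs of arrays correlated at 0.985 to 0.995, and no pair had more than 0.0334% equal values.

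Names came from the platform annotation, in which 30439 transcript clusters had exactly 1 symbol and 2146 several, while 33185 were not listed. Symbols of 827 were updated by gene identifier. A probe set was kept if it lay above the array median on at least 5 arrays, and the brightest per gene was used, which gave 19050 genes. limma 3.58.1 (R 4.3.3) fitted the 4 group means over all 22 arrays (18 residual and 4.34 prior degrees of freedom). There were 6 comparisons: the knockout effect (knockout minus control) in each sex and its mean, the sex difference (male minus female) in each genotype, and the male minus the female knockout effect. A call is a two-sided limma p, adjusted by Benjamini-Hochberg over all 19050 genes, under 0.05. Litters, scan dates and batches are not given, so no covariate was fitted.

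The members and lists were chosen with earlier results of these data known. Full values are given for members called in any comparison and up to 2 of smallest p in each described role, from each pathway list the called genes and up to 2 of smallest p, and Sox9 and Shh as the check of genotype. Other members were named outside that rule, after their values were seen.

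Alternatives were median centring, quantile normalization, array weights, a trended robust eBayes, no dim filter or one at the 75th percentile, averaging a gene's probe sets, fitting only the groups compared, a replicate block, the mesenchyme mean as a covariate, and leaving out each array. The stress mean as a covariate, and leaving out male control 6, male knockout 5 and female knockout 5 together, were added after seeing the data. The fit was run on simulated arrays with independent normal noise and known changes in some genes. That run required recovery of the larger changes only, and its recovery of smaller ones is not reported here. Promoter windows of 250 bases came from RefSeq (GRCm38.p6). Python 3.11.15 with matplotlib 3.10.9 drew the figures.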

Additional observations from a re-analysis of the deposited data

Results flagged for a closer look

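In 23 of 232 groups of arrays examined, 1 array lay far from the rest by Dixon's test at the 95% level, which chance does in about 1 in 20 groups. The groups were the 4 groups of arrays for each of the 49 members and 9 marker lists. For single members it was 17 of 196. No cause was tested.

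Male control 6 gave 9 of these, always as the highest male control. They were Nid1 at 8.65 (next 6.73), Lama4 at 6.57 (next 5.52), Nid2 at 6.31 (next 5.66), Itga5 at 7.72 (next 7.22), Fbln1 at 8.82 (next 8.64) and Frem1 at 6.26 (next 5.08). Its mean was also the highest for mesenchyme markers at 7.81 (next 6.87), smooth muscle markers at 7.11 (next 5.79) and endothelial markers at 6.48 (next 5.82, 3 of 7 genes measured).

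Male control 4 was high for the integrin chains Itga11 at 5.64 (next 5.34), Itgal at 5.80 (next 5.52), Itgax at 5.21 (next 4.98) and Itgb2 at 5.67 (next 5.37). The last 3 are chains of leukocyte integrins, but the leukocyte marker mean of that array, 6.50, lay inside the male control range of 6.42 to 6.71. Male control 4 was also the highest male control, without a flag, for Itga7 at 6.11 and Lamc3 at 6.58, which are not leukocyte chains. Male knockout 4 was low for Itga2b, the alpha chain of the platelet integrin, at 6.57 (next 6.77), for Itgax at 4.94 (next 5.03) and for the Schwann cell value, which rested on Sox10 alone, at 6.29 (next 6.41). Male control 3 was low for Fras1 at 9.53 (next 9.85) and Lama2 at 4.89 (next 5.22), and its leukocyte mean was high at 6.71 (next 6.50). Fras1 was also low in male knockout 1 at 9.54 (next 9.88). The smooth muscle mean was high in male knockout 5 at 6.04 (next 5.65). Among females, Nid2 was high in female control 4 at 6.22 (next 5.70), and Sparc in female knockout 2 at 9.72 (next 9.50).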

How the results depend on the processing

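Itgb8 in males and in the mean, Lamc1, Lamb2 and Smoc1 in both comparisons of the sexes, and Lama5, Lama3 and Itga8 between male and female knockouts kept direction and call under every alternative run. Over 52 gene results and all alternatives, 1684 of 1759 values kept direction and side of the threshold, 56 lost the call, 18 gained it and 1 changed sign: Dag1 in females, -0.02, was 0.0043 without female control 3 and ran from -0.0432 to 0.0043 when single arrays were left out, and passed in none of these.

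The count of members called in the mean knockout effect was 1, and 2 with median centring, where Itgb4 joined Itgb8. When single arrays were left out it ran from 1 to 2. Members called between the sexes numbered 6 to 10 in each comparison when 1 array was left out. Under the other alternatives they numbered 6 to 10 in knockouts and 6 to 12 in controls, the highest with array weights. The cause was not tested.

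Groups share replicate numbers. Deviations from group means correlated between -0.42 and 0.28 over same-numbered pairs. Between male and female knockouts all 5 were positive (0.01 to 0.25), and each other pair of groups held both signs. Pairs of unlike number were not compared, so whether the numbers pair the arrays was not tested. With the replicate block the members called were 1 in males, 0 in females, 1 in the mean, 8 between male and female knockouts, 7 between male and female controls, and 0 for the difference of effects. Lost were Lamb1 in knockouts (0.21) and Itga5 (-0.36) and Lama5 (0.20) in controls.

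Signal limits the dim members. With the stricter filter 27 of 45 members were tested, and Itga2, Itga9, Itga11, Itgam, Itgad and Fbln2 were not.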
